A study of Mus musculus with 24 samples.

Results

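A set of 10 genes of the retinal pigment epithelium and of melanin synthesis were followed in the neonatal mouse retina: Rpe65, Lrat, Rlbp1, Best1, Rgr, Ttr, Mitf, Tyr, Dct and Pmel. They were taken by symbol from the retina count table, where each of the 10 symbols matched 1 Ensembl identifier among 36595 listed genes, and all 10 were among the 19173 genes that passed the filter on low counts. RNA from the whole retina of 12 C57/B6 mice was sequenced, with 3 mice in each of 4 groups. WT-RA and KO-RA mice stayed in room air, and WT-O2 and KO-O2 mice were kept in 75% oxygen from postnatal day 7 to 12 and then returned to room air. All retinas were collected on postnatal day 18. KO mice were homozygous for a small CRISPR/Cas9 deletion in Gsdmd in every cell of the body, Gsdmd encodes the pore-forming protein gasdermin D, and WT mice were their littermates from heterozygous parents.

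The retinal pigment epithelium is a single layer of pigmented cells behind the photoreceptors. It converts all-trans-retinol back to 11-cis-retinal for the visual pigments, takes up shed photoreceptor outer segments, and holds melanin in melanosomes. It is not part of the neural retina, and when a retina is dissected some of this layer, or some of the pigmented choroid and ciliary body beside it, can come along. The members therefore divide by role into genes of retinoid handling in the pigment epithelium (Rpe65, Lrat, Rgr, Ttr), Rlbp1, which Mueller glia also use, the channel gene Best1, the regulator Mitf, and the melanin genes Tyr, Dct and Pmel.

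Promoters are shown for Rpe65, Rgr and Lrat, whose levels moved together across retinas, and for Tyr, Dct and Rlbp1, which followed Rpe65 less closely. Pearson correlations of log2 levels with Rpe65 were 0.97 for Lrat and Rgr, 0.88 for Tyr, 0.83 for Dct and 0.77 for Rlbp1. The letters next to their start sites are set side by side, and a link between these letters and the levels was not tested. Each sequence is from RefSeq on GRCm38.p6, runs 5′ to 3′ on the strand of the gene, and covers 250 bases before and 50 bases after the annotated start. Capitals mark CATGTG, an E-box that MITF can bind, and TAATCC, the core bound by OTX-family homeodomain factors, each on either strand (CACATG and GGATTA). The promoters are Rpe65 at chr3:159598931-159599230 (plus strand), Rgr at chr14:37048965-37049264 (minus strand), Lrat at chr3:82903925-82904224 (minus strand), Tyr at chr7:87493463-87493762 (minus strand), Dct at chr14:118052197-118052496 (minus strand) and Rlbp1 at chr7:79386978-79387277 (minus strand).
Rpe65: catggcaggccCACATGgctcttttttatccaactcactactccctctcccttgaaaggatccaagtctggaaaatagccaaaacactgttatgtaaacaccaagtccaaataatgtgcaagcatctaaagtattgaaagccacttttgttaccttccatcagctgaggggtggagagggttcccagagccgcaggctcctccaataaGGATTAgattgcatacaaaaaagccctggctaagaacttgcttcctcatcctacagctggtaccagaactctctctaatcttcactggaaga
Rgr: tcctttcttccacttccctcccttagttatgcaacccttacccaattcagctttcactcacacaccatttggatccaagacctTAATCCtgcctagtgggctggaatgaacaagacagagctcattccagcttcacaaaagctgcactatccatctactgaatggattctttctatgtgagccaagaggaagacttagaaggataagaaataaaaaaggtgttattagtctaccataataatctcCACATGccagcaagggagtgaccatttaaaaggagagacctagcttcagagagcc
Lrat: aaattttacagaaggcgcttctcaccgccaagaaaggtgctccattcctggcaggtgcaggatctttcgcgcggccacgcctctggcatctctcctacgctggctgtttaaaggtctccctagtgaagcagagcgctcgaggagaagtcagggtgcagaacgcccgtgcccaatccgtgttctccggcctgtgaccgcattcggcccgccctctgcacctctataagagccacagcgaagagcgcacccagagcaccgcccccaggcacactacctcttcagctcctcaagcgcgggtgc
Tyr: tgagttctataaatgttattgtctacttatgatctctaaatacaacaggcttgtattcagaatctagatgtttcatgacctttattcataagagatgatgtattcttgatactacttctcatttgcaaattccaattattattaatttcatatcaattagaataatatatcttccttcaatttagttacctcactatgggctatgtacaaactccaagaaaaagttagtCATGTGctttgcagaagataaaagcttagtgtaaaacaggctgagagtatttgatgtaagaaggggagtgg
Dct: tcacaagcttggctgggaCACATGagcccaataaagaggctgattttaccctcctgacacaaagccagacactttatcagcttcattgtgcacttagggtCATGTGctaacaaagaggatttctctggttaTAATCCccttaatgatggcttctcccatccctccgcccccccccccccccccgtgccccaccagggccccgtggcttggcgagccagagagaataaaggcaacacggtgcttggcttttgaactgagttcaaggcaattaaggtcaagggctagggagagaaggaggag
Rlbp1: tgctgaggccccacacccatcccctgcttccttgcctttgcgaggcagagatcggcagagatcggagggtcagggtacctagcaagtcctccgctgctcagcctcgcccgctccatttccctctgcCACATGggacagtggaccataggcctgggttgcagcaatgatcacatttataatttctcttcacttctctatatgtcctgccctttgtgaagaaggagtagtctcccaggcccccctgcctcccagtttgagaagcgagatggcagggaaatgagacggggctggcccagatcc

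CATGTG lay 239 bases before the start of Rpe65, 5 bases before that of Rgr, 21 bases before that of Tyr, 124 bases before that of Rlbp1, and at 232 and 150 bases before that of Dct. TAATCC lay 42 bases before the start of Rpe65, 167 before that of Rgr and 119 before that of Dct. It also lay 227 bases before the start of Best1 and 119 bases before 1 of the 3 starts of Mitf. These windows are not shown, and the correlations of Best1 and Mitf with Rpe65 were -0.27 and 0.63. The Lrat window held neither motif, and CATGTG was in no window of Best1 or Mitf. The E-box CACGTG reads the same on both strands. It was found in none of the promoters of the 8 members with an entry outside chromosome 18. Of 32851 promoters of this length outside chromosome 18, 14.2% held CATGTG, 7.15% held CACGTG and 7.06% held TAATCC. Motifs of different kinds did not overlap in the windows shown. These matches describe the letters of the windows and were not tested as binding sites. Pmel had no entry, and Ttr lies on chromosome 18, which was left out.

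Expected counts per retina summed to between 24863257 and 29093035 (median 27827879), and no 2 libraries were identical. Gsdmd itself did not separate the genotypes by level. It lay between 0.419 and 4.08 CPM, the count per 1000000 counts of the library, in WT-RA and between 0.636 and 0.98 in KO-RA. In hyperoxia it lay between 2.9 and 5.7 CPM in WT-O2 and between 1.11 and 2.95 in KO-O2. Log2 fold changes of KO against WT were -1.58 in room air and -1.17 in hyperoxia (edgeR adjusted p = 0.346 and 0.482). The deleted stretch is too short for a gene total to check the label. By qRT-PCR the paper found Gsdmd barely detectable in KO retinas. Transcripts of the lens stood out in 3 room-air libraries, called lens-rich below. The sum of 8 lens genes was 7592 CPM in WT-RA GSD382, 21620 in WT-RA GSD383 and 14443 in KO-RA GSD304, against 2.71 to 61.8 in the other 9 retinas. No hyperoxia library was among the 3. Lower lens sums above the rest were found in KO-O2 GSD310, with 61.8 CPM, and WT-RA GSD379, with 24.1 CPM. Photoreceptor genes were high in every group, with 54644 to 79923 CPM summed over 10 genes. Each result below is given with and without the libraries that stand apart where that changes it.

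Levels differed widely between the members. Levels of different genes are compared here only per kilobase of the principal transcript, as the WT-RA median in CPM per kilobase. Ttr, which encodes the thyroxine and retinol carrier transthyretin, had 229, and Rlbp1, which encodes the 11-cis-retinal carrier CRALBP, had 205. Rgr followed with 34.0, Rpe65 with 18.9, Dct with 12.3, Pmel with 5.23 and Lrat with 1.3. Mitf had 0.695, Tyr 0.366 and Best1 0.365. In this order the 3 WT-RA mice overlapped between all neighbours except Rlbp1 and Rgr, Pmel and Lrat, and Mitf and Tyr. How the authors' counts were scaled for transcript length is not given in the sources used here, and this limits comparisons between genes but not those between mice.

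Rpe65 encodes the isomerohydrolase that forms 11-cis-retinol and is the defining gene of the pigment epithelium. Its level was 11.6, 35.9 and 35.2 CPM in the WT-RA mice GSD379, GSD382 and GSD383, 15.8, 11.4 and 4.42 in the WT-O2 mice GSD345, GSD347 and GSD350, 37.3, 20 and 249 in the KO-RA mice GSD301, GSD302 and GSD304, and 13.1, 5.67 and 19.2 in the KO-O2 mice GSD306, GSD308 and GSD310. One mouse, KO-RA GSD304, was 6.67-fold above the next highest retina. In WT-RA the retina that was not lens-rich, GSD379, lay within the range of the hyperoxia retinas, and the lens-rich pair was higher. The lens sum was 14.5 CPM in KO-RA GSD301, with Rpe65 at 37.3 CPM, and 21620 CPM in WT-RA GSD383, with Rpe65 at 35.2 CPM. Between GSD301 and GSD383, lens sums and Rpe65 thus did not keep the same order. The lens-rich retinas GSD304, GSD382 and GSD383 ranked 1, 3 and 4 of the 12 for Rpe65. Below, values within a group are in the order of mice given above for Rpe65.

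Lrat encodes lecithin retinol acyltransferase, which makes the retinyl ester that RPE65 uses. It was at 1.28, 6.94 and 8.74 CPM in WT-RA, 2.27, 1.19 and 0.885 in WT-O2, 4.73, 4.51 and 49.0 in KO-RA and 2.57, 0.991 and 3.49 in KO-O2. Rgr encodes a retinal-binding opsin of the pigment epithelium and of Mueller glia, and was at 49.6, 172 and 144 CPM in WT-RA, 49.9, 28.9 and 17.1 in WT-O2, 94.2, 89.5 and 763 in KO-RA and 32.8, 23.3 and 62.7 in KO-O2. For both, as for Rpe65, GSD304 was far above every other retina and GSD379 was the lowest room-air retina. Ttr was at 140, 272 and 411 CPM in WT-RA, 178, 93.7 and 70.0 in WT-O2, 184, 224 and 1588 in KO-RA and 113, 65.0 and 174 in KO-O2. The lens-rich retinas held ranks 1 to 3 for each of Lrat, Rgr and Ttr.

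Tyr encodes tyrosinase, the rate-limiting enzyme of melanin synthesis. It was at 1.76, 2.21 and 4.07 CPM in WT-RA, 1.19, 0.717 and 1.06 in WT-O2, 1.79, 3.20 and 12.6 in KO-RA and 1.84, 0.239 and 1.22 in KO-O2. The WT groups did not overlap, and GSD304 was again highest. Dct, which encodes dopachrome tautomerase, was at 9.56, 27.1 and 46.2 CPM in WT-RA, 15.5, 13.4 and 13.1 in WT-O2, 20.5, 53.7 and 107 in KO-RA and 23.1, 7.86 and 14.1 in KO-O2. Pmel, whose protein forms the fibrils on which melanin is laid down, was at 8.56, 11.1 and 22.4 CPM in WT-RA, 3.92, 6.70 and 7.93 in WT-O2, 6.73, 37.9 and 26.5 in KO-RA and 15.8, 3.18 and 7.43 in KO-O2. Pmel differed from the other melanin genes in that its highest retina was KO-RA GSD302 and not GSD304. GSD302, which was not lens-rich, ranked 2 for Dct and 3 for Tyr. Exons of Pmel overlap those of Dgka on the opposite strand, and the strand setting of the counting is not given in the sources used here, so its level is uncertain to that extent.

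Rlbp1 was at 565, 439 and 382 CPM in WT-RA, 318, 281 and 287 in WT-O2, 489, 435 and 648 in KO-RA and 353, 262 and 360 in KO-O2. Its retinas spanned 2.47-fold, against 56.3-fold for Rpe65, and room-air and hyperoxia mice did not overlap in either genotype. Mitf, which encodes a transcription factor of melanocytes and the pigment epithelium, was at 3.36, 3.39 and 3.47 CPM in WT-RA, 3.00, 3.43 and 3.78 in WT-O2, 5.20, 6.05 and 6.56 in KO-RA and 3.61, 2.97 and 2.92 in KO-O2. All 3 KO-RA mice lay above the other 9, and the share of all genes with this order was not counted. Best1, which encodes the chloride channel bestrophin-1 of the pigment epithelium, was at or below 0.924 CPM in every retina and at 0.516 CPM in GSD304, so at 5.08 to 24.3 expected counts per library this defining marker was close to its lower limit of detection throughout.

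**Figure D1:**
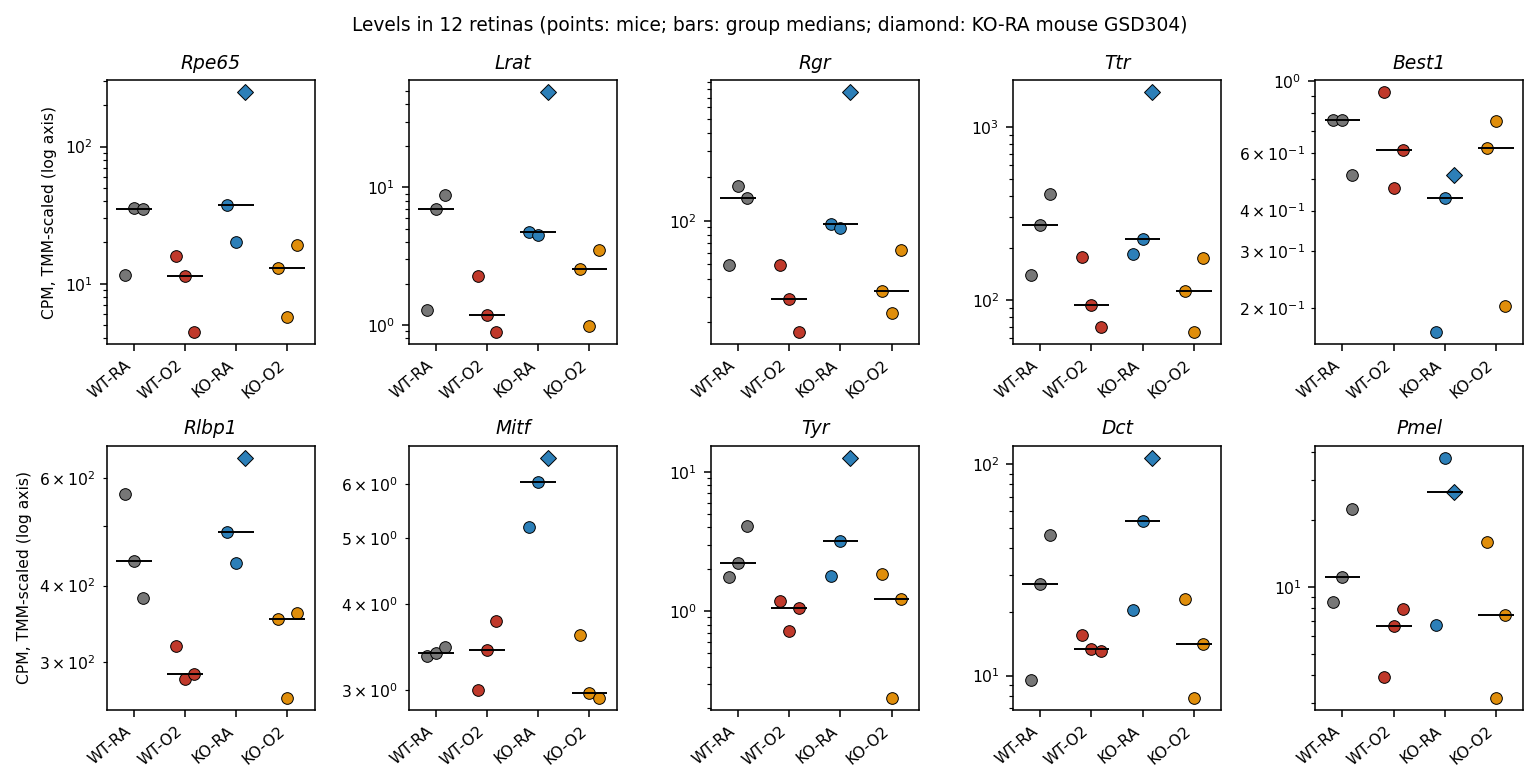
Level of each of the 10 genes in CPM (log axis) in the 12 retinas, by group, with a point for each mouse, a bar at the group median and a diamond for KO-RA GSD304. GSD304 is the highest point for 8 of the 10 genes, at 249 CPM for Rpe65, and the exceptions are Best1 and Pmel.

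KO-RA GSD304 was the highest retina for 8 of the 10 members. Against the median of the other 11 retinas it was 19.1-fold higher for Lrat, 15.7-fold for Rpe65, 15.3-fold for Rgr and 9.14-fold for Ttr. The melanin genes followed with 7.18-fold for Tyr, 6.94-fold for Dct and 3.34-fold for Pmel. Mitf was 1.91-fold and Rlbp1 1.8-fold above that median, and Best1 was at 0.843 of it. These values describe 1 library and carry no test.

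The ratio of a gene to Rpe65 within a retina shows which members kept pace with it. Rgr stayed between 2.5 and 4.78 times the CPM of Rpe65 in all 12 retinas, Lrat between 0.104 and 0.248 times, and Ttr between 4.93 and 15.8 times, while Rpe65 itself spanned 56.3-fold. GSD304 lay inside these ranges, with ratios of 3.07, 0.197 and 6.38. The melanin genes spread more, with Tyr between 0.0422 and 0.238, Dct between 0.431 and 2.96 and Pmel between 0.106 and 1.9 times the CPM of Rpe65. Rlbp1 ran from 2.6 times in GSD304 to 64.8 times in WT-O2 GSD350, and Mitf from 0.0263 to 0.854 times in the same retinas. The narrow and the wide ratios are thus from the same 12 libraries, which share depth and preparation within each retina.

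**Figure D2:**
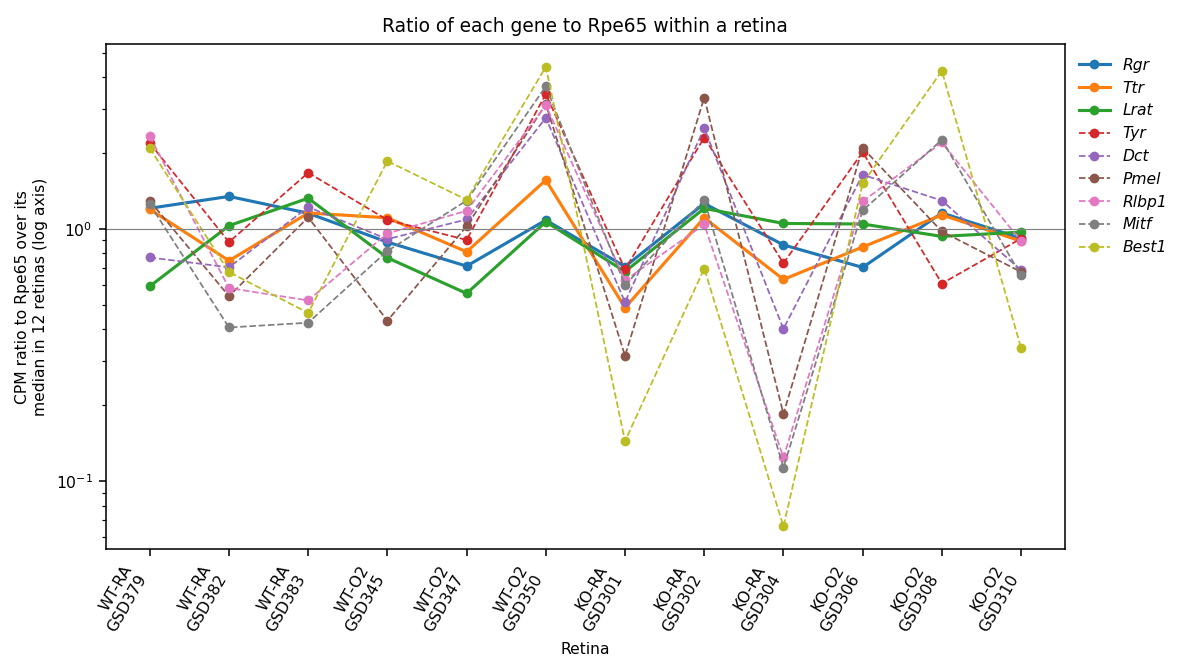
Ratio of each gene to Rpe65 within a retina, divided by the median of that ratio over the 12 retinas (log axis), with solid lines for Rgr, Ttr and Lrat and dashed lines for the other 6 genes. The solid lines stay near 1, including KO-RA GSD304. The lines of Rlbp1, Mitf, Best1, Dct and Pmel drop in GSD304 and rise in WT-O2 GSD350, where that of Tyr is also highest.

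Across the 12 retinas, on log2(CPM + 0.5), Pearson correlations with Rpe65 were 0.97 for Lrat, 0.97 for Rgr and 0.96 for Ttr, and 0.93, 0.95 and 0.91 over the 11 retinas without GSD304. Tyr had 0.88 and Dct 0.83, against 0.72 and 0.68 without GSD304. Rlbp1 had 0.77, Mitf 0.63 and Best1 -0.27, against 0.62, 0.3 and -0.39 without GSD304. Among 15652 genes averaging 1 CPM or more, the 6 nearest to Rpe65 outside the members were Stra6, Ermn, Enpp2, Slc16a9, Rdh5 and Col8a2, with correlations of 0.97 to 0.98, and 0.93 to 0.96 without GSD304. Stra6 encodes the retinol-uptake receptor and Rdh5 the 11-cis-retinol dehydrogenase of the pigment epithelium. The 6 genes nearest to Pmel were Tyrp1, Frem1, Mlana, Fam98a, Gsta3 and Gnpda2, with correlations of 0.87 to 0.90. Tyrp1 and Mlana are melanosome genes. Dct had a correlation of 0.86 and Tyr 0.82 with Pmel, whereas Rpe65 had 0.56. Without GSD304 these were 0.87, 0.85 and 0.42. These are descriptions over retinas that share 1 preparation each, with no test.

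Pmel and, of the genes nearest to it, Tyrp1 and Mlana were high in the 3 retinas GSD302, GSD304 and GSD383, in differing order. Fam98a and Gnpda2 varied little, with highest levels of 34.1 and 22.4 CPM against medians of 29.4 and 20.7 CPM. Tyrp1 was at 35.7 CPM in GSD304, 21.8 in GSD383 and 20.2 in GSD302, and at or below 8.01 in the other 9. Mlana was at 11.2 CPM in WT-RA GSD383, 8.11 in KO-RA GSD302 and 6.79 in GSD304, and at 0.342 to 3.77 in the other 9. Fibroblast genes of choroid and sclera, summed over 8 genes, were also highest in GSD383 with 108 CPM. Their sum was 51.6 CPM in GSD302 and 27.6 in GSD304, against 74.2 in WT-O2 GSD347 and 54.9 in WT-O2 GSD350. The genes of that list differed. Dcn was at 10.2 CPM in GSD383, 7.97 in GSD302 and 0.12 to 1.25 in the other 10. Lum was likewise highest in GSD383 and then GSD302, and Ogn in GSD383 and then GSD304. Col3a1 was highest in WT-O2 GSD350 and Pdgfra in KO-O2 GSD306. Fbln1 was instead highest in WT-O2 GSD347, with 50.4 CPM of that retina's sum of 74.2. In GSD383, Fbln1 made up 48.4 CPM of the sum of 108. The part of these cells in the levels of Pmel was not tested.

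**Figure D3:**
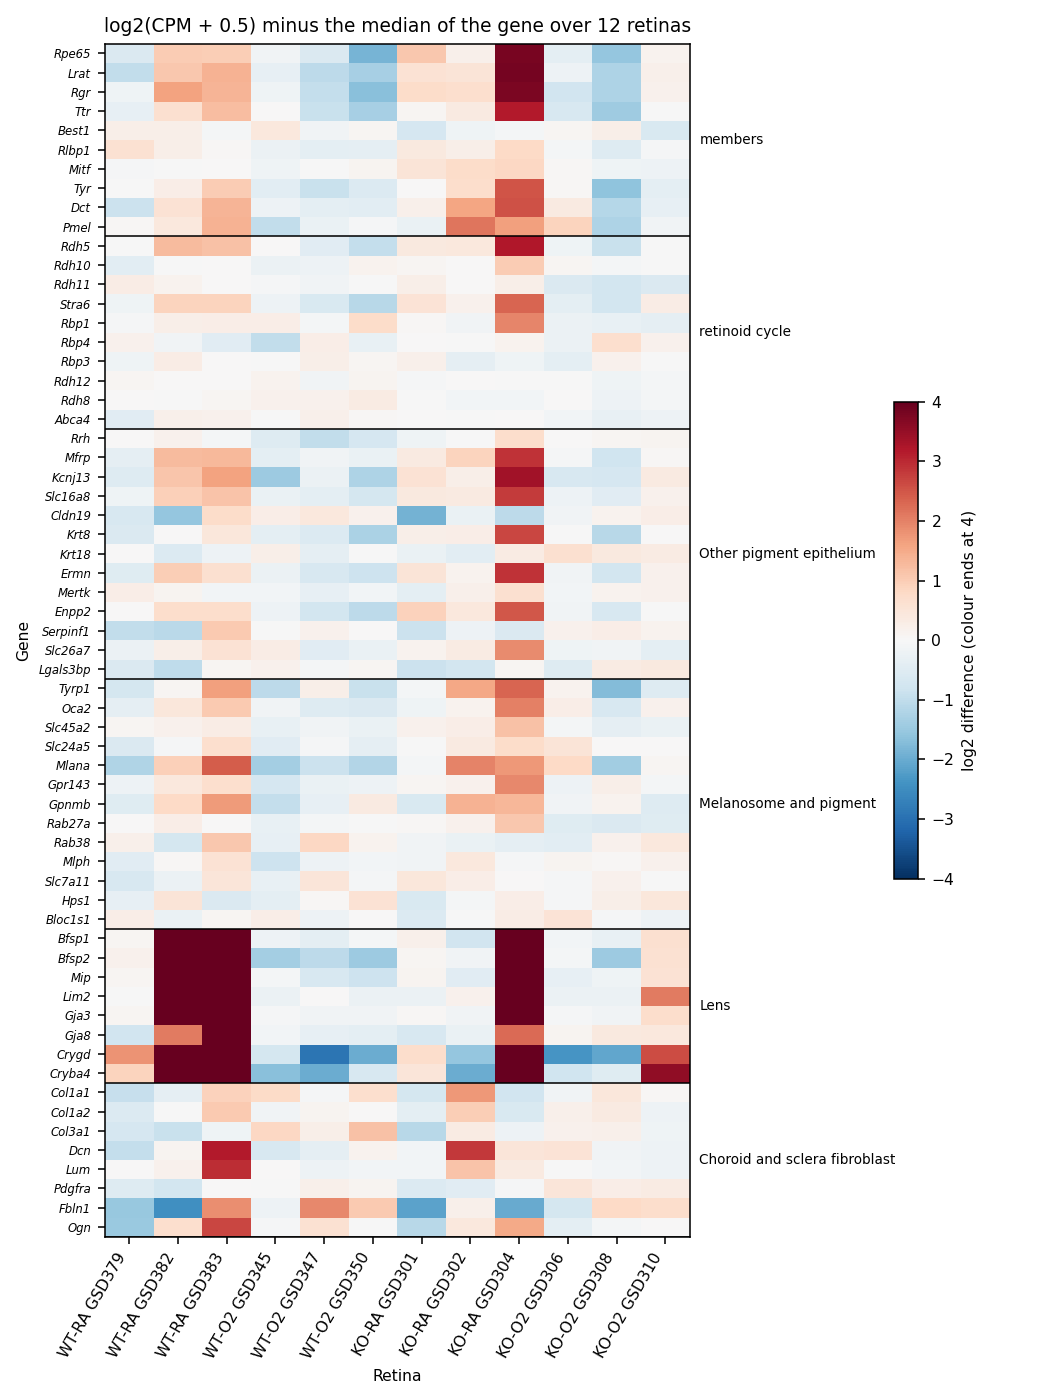
Difference of log2(CPM + 0.5) from the median of each gene over the 12 retinas, for the 10 members and for 5 lists of related or neighbouring tissue, with 1 column per retina and red for higher levels. KO-RA GSD304 is red for Rpe65, Lrat, Rgr, Ttr, Rdh5, Mfrp and Kcnj13, the lens genes are red in WT-RA GSD382 and GSD383 and in GSD304, and Best1 is pale throughout.

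Hyperoxia was first compared with room air in WT retinas. Of the 10 members, 9 had a negative log2 fold change and Mitf lay at 0.0, with a median over the members of -1.23 against 0.0 over all genes tested. Values were -1.97 for Lrat (SE 1.06), -1.93 for Rgr (SE 0.92), -1.44 for Tyr (SE 0.77), -1.39 for Rpe65 (SE 0.97), -1.27 for Ttr (SE 0.84), -1.18 for Pmel (SE 0.70), -0.98 for Dct (SE 0.67) and -0.03 for Best1 (SE 0.62). In whole tissue, fewer cells of a type and less RNA per cell cannot be told apart. By edgeR's quasi-likelihood test 0 of the 10 members were called, where a call needed a Benjamini-Hochberg adjusted p under 0.1, an unadjusted p under 0.05 and a change of 2-fold or more. Among all genes tested 2.04% were called. One member, Rlbp1, had an unadjusted p under 0.05, where 17.4% of all genes did, and DESeq2 called 0, against 3.37% of all genes.

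Rlbp1 was the member that came nearest to a call in WT retinas. It was at 462 ± 93.2 CPM (SD, n = 3) in WT-RA and 295 ± 19.7 in WT-O2, a log2 fold change of -0.65 (SE 0.18, edgeR adjusted p = 0.0956) that is under 2-fold. Adjusted p under 0.1 at any fold was reached by 5.16% of all genes. Over the alternatives its adjusted p ran from 0.00207 to 0.291, and without WT-RA GSD379 it was -0.48 (adjusted p = 0.291). Of 10 genes of Mueller glia, which also use Rlbp1, 7 had a negative and 3 a positive log2 fold change, with a median of -0.32. By the same edgeR test Kcnj10 (-0.74, adjusted p = 0.0334), Dkk3 (-0.43, adjusted p = 0.0396) and Glul (-0.60, adjusted p = 0.0464) were lower at less than 2-fold, and Gfap was called higher (2.66, adjusted p = 0.0318). The other 2 positive genes were Vim (0.68) and Slc1a3 (0.26), which did not pass. The part of Mueller glia in the level of Rlbp1 was not tested.

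For Rpe65, Lrat, Rgr, Ttr, Tyr, Dct and Pmel the WT difference was nearer to 0, or past it, without the lens-rich retinas. Leaving out GSD382, GSD383 and GSD304, a setting chosen after the data were seen, left GSD379 as the single WT-RA mouse. Its fit assumes that it varies as the other groups do. Rpe65 then differed by -0.14 (edgeR adjusted p = 0.966), Ttr by -0.31, Rgr by -0.64, Tyr by -0.84 and Pmel by -0.47, while Lrat (0.17) and Dct (0.54) changed sign. Rlbp1 differed by -0.94 (adjusted p = 0.0528) in that fit. The part of the dissected tissue in these levels was not tested. Without GSD304 alone, which leaves the WT fold changes as they are and narrows the shared spread, DESeq2 called Rgr (-1.93, adjusted p = 0.0152) and Lrat (-1.97, adjusted p = 0.0549), with 3.18% of all genes called, and edgeR called 0 of 10, with 1.92%. Over the alternatives their adjusted p ran from 0.0152 to 0.638 and from 0.0549 to 0.942. The groups did not overlap for Rlbp1, Tyr and Pmel, 3 of 10 members, where 11.9% of all genes did not overlap and were lower.

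Hyperoxia was then compared with room air in KO retinas. Again 9 of 10 members had a negative log2 fold change, with a median of -2.21 over the members against 0.0 over all genes tested. Lrat differed by -3.04 (SE 1.06), Rpe65 by -3.01 (SE 1.00), Rgr by -3.00 (SE 0.95) and Ttr by -2.51 (SE 0.87), with edgeR adjusted p between 0.122 and 0.15. Tyr differed by -2.41 (SE 0.78, adjusted p = 0.112), Dct by -2.01 (SE 0.68, adjusted p = 0.139) and Pmel by -1.43 (SE 0.70, adjusted p = 0.286). Best1 differed by 0.49 (SE 0.63).

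None of these passed the test in edgeR, which called 0 of 10 members where 2.19% of all genes were called. An unadjusted p under 0.05 was reached by 8 members and by 20.3% of all genes. DESeq2 called 6, namely Rpe65, Lrat, Rgr, Ttr, Tyr and Dct, and 3.46% of all genes. With GSD304 left out, DESeq2 called 0 members and 2.96% of all genes, and the median over the members was -1.08. Rpe65 then differed by -1.18 (SE 0.67, edgeR adjusted p = 0.414), against a range of 0.0151 to 0.414 over the alternatives, and Lrat by -0.97, Rgr by -1.21 and Ttr by -0.80. In edgeR 1 member was called without WT-RA GSD379 (Dct, -2.01, adjusted p = 0.0958), with 2.19% of all genes, and 1 without KO-O2 GSD306 (Mitf, -1.01, adjusted p = 0.0215), with 2.04% of all genes. KO-RA and KO-O2 mice did not overlap for 6 members, Rpe65, Lrat, Rlbp1, Rgr, Ttr and Mitf, where 12.7% of all genes did not overlap and were lower. These 6 are not 6 separate results, since Rpe65, Lrat, Rgr and Ttr kept a narrow ratio to each other in every retina.

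Mitf and Rlbp1 had an edgeR adjusted p under 0.1 at less than 2-fold in KO retinas, where 7.82% of all genes were under 0.1 at any fold. Mitf was at 5.94 ± 0.683 CPM (SD, n = 3) in KO-RA and 3.17 ± 0.384 in KO-O2, a log2 fold change of -0.91 (SE 0.17, edgeR adjusted p = 0.0183). Without GSD304 it was -0.83 (adjusted p = 0.0714) and without the 3 lens-rich retinas -0.83 (adjusted p = 0.104), within a range of 0.000292 to 0.104 over the alternatives. Rlbp1 was at 524 ± 111 CPM in KO-RA and 325 ± 54.7 in KO-O2, a log2 fold change of -0.69 (SE 0.18, edgeR adjusted p = 0.0639). Without GSD304 it was -0.51 (adjusted p = 0.189), within a range of 0.00342 to 0.24. Rlbp1 was thus lower in hyperoxia than in room air in each genotype, and Mitf in KO mice, where WT mice gave 3.41 ± 0.056 and 3.40 ± 0.389 CPM.

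**Figure D4:**
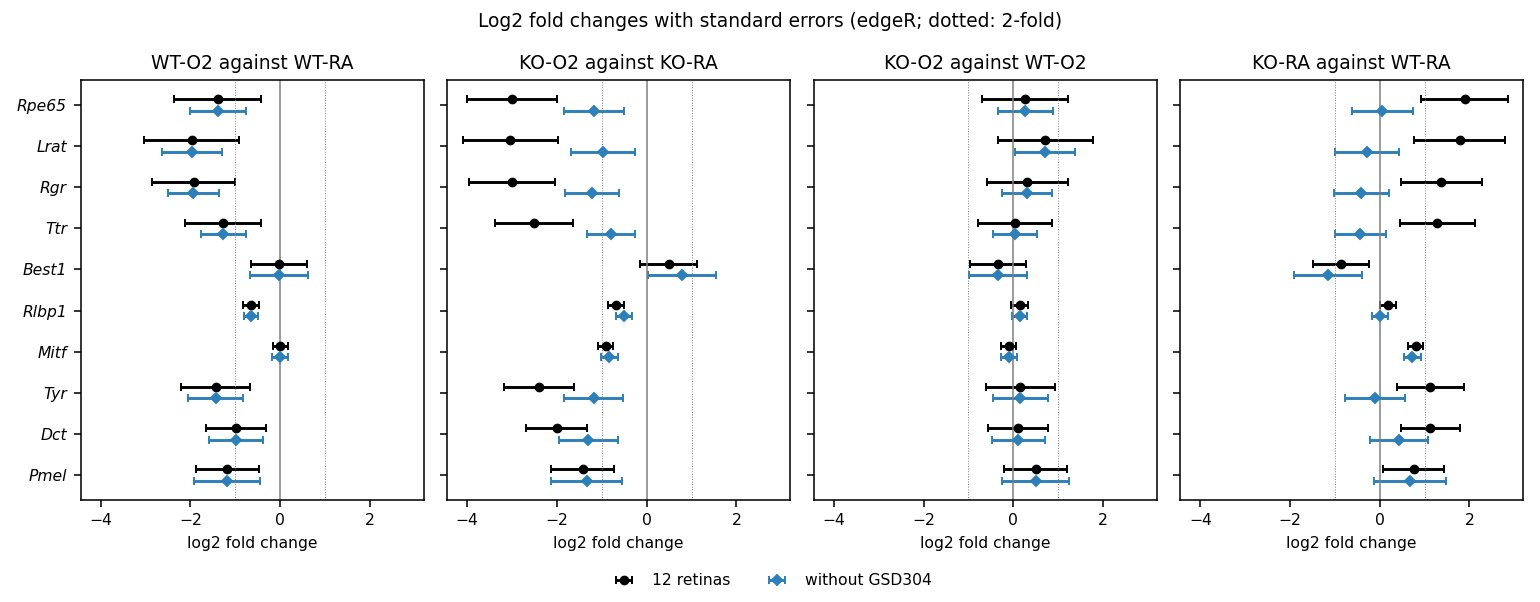
Log2 fold change of each gene with its standard error from edgeR in 4 comparisons, over 12 retinas (black circles) and without KO-RA GSD304 (blue diamonds), with dotted lines at 2-fold. Leaving out GSD304 moves Rpe65 from -3.01 to -1.18 in KO-O2 against KO-RA and from 1.89 to 0.06 in KO-RA against WT-RA, and leaves Mitf near its place in each comparison.

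The genotypes were compared under hyperoxia, where no library was lens-rich. Log2 fold changes of KO-O2 against WT-O2 ran from -0.34 for Best1 to 0.71 for Lrat, with a median of 0.15 over the members against 0.01 over all genes tested. Rpe65 differed by 0.27 (95% interval -1.91 to 2.44), Rgr by 0.31 (-1.72 to 2.34), Ttr by 0.04 (-1.83 to 1.91), Rlbp1 by 0.14 (-0.27 to 0.54) and Mitf by -0.10 (-0.48 to 0.27). Tyr differed by 0.16 (-1.53 to 1.84), Dct by 0.10 (-1.40 to 1.61) and Pmel by 0.50 (-1.06 to 2.07). By edgeR 0 of 10 members were called, where 0.292% of all genes were, with adjusted p between 0.852 and 0.997. None had an unadjusted p under 0.05, where 12.6% of all genes did, DESeq2 called 0 with 0.908% of all genes, and the groups overlapped for all 10 members, where 10% of all genes did not overlap and were higher in KO-O2 and 9.86% did not overlap and were lower. The intervals of Rlbp1 and Mitf exclude a 2-fold difference, and those of Rpe65, Lrat, Rgr, Ttr, Tyr, Dct, Pmel and Best1 do not.

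In room air, 9 of 10 members were higher in KO than in WT retinas, with a median log2 fold change of 1.13. The largest was Rpe65 with 1.89 (SE 0.96, edgeR adjusted p = 0.449), followed by Lrat with 1.78 (SE 1.01), Rgr with 1.37 (SE 0.90) and Ttr with 1.28 (SE 0.84). Tyr and Dct differed by 1.13 each (SE 0.74 and 0.66), Pmel by 0.76 (SE 0.68), Rlbp1 by 0.18 (SE 0.18) and Best1 by -0.86 (SE 0.63). Without GSD304 the median was -0.05 and 4 members were above 0. Lrat then differed by -0.29, Rgr by -0.41, Ttr by -0.43 and Tyr by -0.10, which turned their direction, and Rpe65 by 0.06 and Rlbp1 by 0.00. Dct (0.43), Pmel (0.67) and Mitf (0.72) kept theirs, and Best1 differed by -1.15. With every lens-rich retina left out, GSD379 was the single WT-RA mouse. In that fit Lrat (1.84), Rgr (0.88), Ttr (0.53) and Tyr (0.49) were positive again. Rpe65 differed by 1.3, Dct by 1.95, Pmel by 1.37 and Mitf by 0.73, while Rlbp1 (-0.3) and Best1 (-1.32) were negative. The direction thus depended on which libraries were left out. edgeR called 0 of 10 members, where 0.00522% of all genes were called. DESeq2 called 0 members and 0.156% of all genes, and gave no adjusted p for Mitf, Tyr and Best1.

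Mitf was the 1 member with an unadjusted p under 0.05 in this comparison, as were 12.7% of all genes. KO-RA retinas held 1.74-fold more Mitf than WT-RA retinas, a log2 fold change of 0.80 (SE 0.17, edgeR adjusted p = 0.236), and all 3 KO-RA mice were above all 3 WT-RA mice, where 10.7% of all genes did not overlap and were higher. The value was 0.72 without GSD304 (adjusted p = 0.385) and 0.73 without the 3 lens-rich retinas, over a range of adjusted p from 0.0914 to 0.451. Mitf did not pass the test.

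The interaction of genotype and hyperoxia was negative for 9 of 10 members, with a median of -1.0, and positive for 7 with a median of 0.24 without GSD304. edgeR called 0 of 10, where 0.00522% of all genes were called, and 1 member and 10.6% of all genes had an unadjusted p under 0.05. That member was Mitf, with -0.90 (SE 0.24, edgeR adjusted p = 0.235), which DESeq2 called (adjusted p = 0.0675) with 2.97% of all genes. Its adjusted p ran from 0.0675 to 0.471 over the alternatives. Rpe65 had -1.62 (SE 1.34), Ttr -1.24 (SE 1.18), Lrat -1.07 (SE 1.45), Rgr -1.06 (SE 1.26), Dct -1.03 (SE 0.94) and Tyr -0.97 (SE 1.07). Pmel had -0.25 (SE 0.98), Rlbp1 -0.04 (SE 0.26) and Best1 0.52 (SE 0.88). With every lens-rich retina left out, GSD379 was the single WT-RA mouse. In that fit Rpe65 (-1.03), Lrat (-1.14), Rgr (-0.57), Ttr (-0.49) and Tyr (-0.34) were negative. So were Dct (-1.84), Pmel (-0.87) and Mitf (-0.84), while Rlbp1 (0.44) and Best1 (0.98) were positive. The sign for most members thus depended on which libraries were left out. Without GSD304 Mitf had -0.83 (edgeR adjusted p = 0.383), and DESeq2 then called 0 members and 476 of 20034 genes. Whether Mitf was called for a different response to hyperoxia between genotypes thus depended on the tool and, in DESeq2, on GSD304.

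The other genes of the same pathways followed the members in part. Of 10 further genes of the retinoid cycle, 0 were called in the WT comparison, in the KO comparison and between genotypes in hyperoxia. Rdh5 followed Rpe65 and reached 276 CPM in GSD304, 9.38-fold over the median of the other 11. Rdh11, a retinol dehydrogenase that photoreceptors also use, had a log2 fold change of -0.80 in KO-O2 against KO-RA (SE 0.10, edgeR adjusted p = 0.00381) and -0.56 in KO-O2 against WT-O2 (SE 0.10, adjusted p = 0.0476), both under 2-fold. It was at 25.7, 22.7 and 25.6 CPM in KO-O2 and between 34.6 and 46.7 CPM in the other 9 retinas. All 3 KO-O2 mice were thus below every other retina for Rdh11. The share of all genes for which this held was not counted.

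Of 13 other pigment epithelium genes, 9 were highest in GSD304. Enpp2, which encodes autotaxin, was called lower in KO-O2 than in KO-RA (-1.82, SE 0.50, edgeR adjusted p = 0.0755), the 1 call in this list where 2.19% of all genes were called in that comparison, and without GSD304 it differed by -0.94 (adjusted p = 0.139). Rrh, which encodes the opsin peropsin, was at 48.0, 54.1 and 45.7 CPM in WT-RA and 33.2, 23.9 and 30.2 in WT-O2 (-0.76, SE 0.20, adjusted p = 0.0748). It was at 42.3, 47.8 and 77.8 CPM in KO-RA, highest in GSD304, and at 48.3, 50.4 and 52.0 in KO-O2 (-0.16 against KO-RA, SE 0.20, adjusted p = 0.722, and 0.79 against WT-O2, SE 0.20, adjusted p = 0.124, or 0.0501 without GSD304). Without GSD304, edgeR also called Enpp2 (-1.16, adjusted p = 0.0583) and the lactate transporter gene Slc16a8 (-1.24, adjusted p = 0.0776) lower in WT-O2 than in WT-RA, where 1.92% of all genes were called.

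Of 13 melanosome and pigment genes, 1 was called, in KO-O2 against KO-RA, where 2.19% of all genes were. It was Rab27a, whose protein moves melanosomes along the cell cortex. It was at 7.44, 8.17 and 15.8 CPM in KO-RA and 4.96, 4.68 and 4.99 in KO-O2 (-1.10, SE 0.25, edgeR adjusted p = 0.0386), and without GSD304 it differed by -0.68 (adjusted p = 0.0744). Mlana differed by -3.30 in WT retinas (SE 1.13, adjusted p = 0.165). Of 11 tested regulators of pigment cells, 0 were called in any comparison, and Sox9, which Mueller glia also express, was higher in WT-O2 than in WT-RA at less than 2-fold (0.81, SE 0.21, adjusted p = 0.0733). Enpp2 and Rab27a were named because they were called, after their values were seen.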

How the data were processed

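RNA from 12 mouse retinas (3 per group) was analysed, with groups taken from the labelled genotype and treatment; the 12 lungs of the series enter the closing observations only. Per the labels and methods, reads were assigned to mouse transcripts with kallisto and summed per gene with tximport, whose settings and strand are not given, and the authors deposited a table of expected counts (estimated counts) not divided by library size. The labels name mm10 as the build, and the supplement names another. Of nonzero values 2.2% were whole within 0.01. All columns were matched to samples (0 unmapped). Libraries held 24863257 to 29093035 counts, so counting error matters for members near 1 CPM and the spread between mice for the others.

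Counts were rounded and fitted in R 4.3.3 with edgeR 4.0.16 on all 12 retinas and a coefficient for each group. filterByExpr kept 19173 genes, TMM set the scale, and quasi-likelihood tests were adjusted by Benjamini-Hochberg over all of them. A gene was called at adjusted p under 0.1, p under 0.05 and at least 2-fold, with no fold threshold for the interaction, thresholds the authors used with DESeq2. Standard errors are the log2 fold change over the root of F, and 95% intervals use the t quantile at the degrees of freedom of that test. Levels are CPM with TMM factors, and p-values measure the spread between these mice only. The fit was checked on simulated counts. Alternatives were DESeq2 1.42.0, limma 3.58.1 voom, RLE normalization, no filter, 2 groups alone, and leaving out each retina. Added after the data were seen were leaving out the 3 lens-rich retinas, and DESeq2 without GSD304. Gene symbols and exons are from a GRCm38 annotation. Promoter sequences are RefSeq's.

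The members, lists and motifs were chosen with earlier results of these data known. All 10 members are named in every comparison. From each list of related genes, those with the smallest p in the WT and the hyperoxia genotype comparison could be named. The genes nearest to Rpe65 and Pmel are the 6 with the largest correlation.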

Additional observations from a re-analysis of the deposited data

Results flagged for a closer look

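A signal appeared in data outside the retina comparisons. Ttr was at 9.56 CPM (280 expected counts) in 1 KO-O2 lung, GSD061, where the median of the 12 lungs was 0.0 CPM and no room-air lung was above 0.0347 CPM. Rpe65 was at 0 in all 12 lungs, and Rgr was at or below 0.0687 CPM. The source of Ttr in this lung was not tested.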

How the results depend on the processing

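With 3 mice per group, differences under about the spread between mice could not be shown, and the level of most members rested on single retinas. RLE normalization kept the direction and side of the threshold of all 50 fold changes (10 members in 5 comparisons), the fit without a filter of 49, and limma voom of 48. No paired analysis was possible because the labels give animal numbers and no replicate number shared between groups.

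DESeq2 called more genes, with 647 in WT-O2 against WT-RA, 663 in KO-O2 against KO-RA, 174 in KO-O2 against WT-O2, 30 in KO-RA against WT-RA and 569 in the interaction, against 391, 420, 56, 1 and 1 in edgeR. It called 6 members in KO-O2 against KO-RA and 1 in the interaction, and gave Mitf 0.0 in WT retinas. With only the 2 groups compared, 0 genes were called in KO-RA against WT-RA and Mitf was 0.01 in WT retinas. Limma voom gave -0.21 for Tyr and -0.02 for Dct in KO-O2 against WT-O2. The cause of these was not tested.

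Without the 3 lens-rich retinas, 27 genes were called in KO-O2 against WT-O2, 0 in KO-RA against WT-RA and 0 in the interaction. In WT retinas Dct was 0.54, Lrat 0.17 and Mitf 0.01, and Rlbp1 was -0.30 in KO-RA against WT-RA and 0.44 in the interaction. DESeq2 without GSD304 called 2 members and 637 genes in WT retinas, 0 members and 593 genes in KO retinas, 158 genes in KO-O2 against WT-O2, 167 in KO-RA against WT-RA, 0 members and 476 genes in the interaction. It gave Tyr -0.12, Rgr -0.43, Lrat -0.31, Rlbp1 -0.02 and Ttr -0.44 in KO-RA against WT-RA, and Tyr 0.26, Rgr 0.72, Lrat 0.99, Rpe65 0.21, Rlbp1 0.14 and Ttr 0.47 in the interaction. These settings fit fewer samples.

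Leaving out 1 retina at a time, the genes called ranged from 196 to 504 in WT retinas, 151 to 439 in KO retinas, 6 to 83 in KO-O2 against WT-O2, 0 to 1 in KO-RA against WT-RA and 0 to 340 in the interaction, where 340 came without KO-O2 GSD306. Members called ranged from 0 to 1 in KO retinas and were 0 in the other comparisons. In WT retinas Mitf ranged from -0.07 to 0.08 and Best1 from -0.33 to 0.17. In KO-O2 against WT-O2 Tyr ranged from -0.43 to 0.63, Rgr from -0.19 to 0.78, Dct from -0.34 to 0.41, Pmel from -0.22 to 0.90, Rpe65 from -0.16 to 0.67, Best1 from -0.68 to 0.05 and Ttr from -0.36 to 0.52. In KO-RA against WT-RA Tyr ranged from -0.10 to 1.56, Rgr from -0.41 to 1.81, Lrat from -0.29 to 2.25 and Ttr from -0.43 to 1.72. In the interaction Tyr ranged from -1.56 to 0.26, Rgr from -1.56 to 0.72, Pmel from -0.98 to 0.26, Lrat from -1.54 to 1.00, Rpe65 from -2.11 to 0.21, Rlbp1 from -0.21 to 0.14 and Ttr from -1.68 to 0.47. As CPM of the library total, 39 of 40 group means moved by less than 1 SD, and Mitf in WT-RA was 3.07 CPM.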

Other observations

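Lrat and Mitf had a clear level in the lung, which holds no pigment epithelium. Lrat, which also stores retinyl ester in the lung, was at 8.77 ± 2.62 CPM (SD, n = 3) in WT-RA and 2.92 ± 0.597 in WT-O2 lungs. It was at 5.97 ± 0.701 CPM in KO-RA and 3.32 ± 0.675 in KO-O2 lungs. Mitf lay between 8.05 and 11.8 CPM over the 12 lungs. Tyr was at or below 0.191 CPM and Rlbp1 at or below 0.241 CPM there, while Best1, Dct and Pmel lay between 0.547 and 2.19 CPM. Lung and retina tables were normalized separately, and no test was made between or within them for the lung.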
